A study of Mus musculus with 2 samples.

Results

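Of 19841 high open-chromatin sites on the autosomes of mouse hippocampus, 369 (1.86%) had no footprint of either replicate over the stretch where the peaks of both replicates overlapped. These 369 sites are the members described here. A footprint is a short stretch inside open chromatin with fewer DNase I cuts than its surroundings. The members were selected on measured values, namely peak height and footprint calls. A site was high where its peak exceeded the median height of the shared peaks in each replicate, which was 1.48 for replicate 1 and 1.09 for replicate 2 (heights are signal values as the authors deposited them). Each site took the height of the highest peak touching it in each replicate. That peak can be wider than the overlap, so a height need not be reached inside the overlap. The comparison peaks were the 18045 high sites with footprints of both replicates. A further 990 high sites had footprints of replicate 1 only and 437 had footprints of replicate 2 only. Among all 49472 autosomal shared peaks, whatever their height, 6310 (12.8%) had no footprint of either replicate.

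The series measured chromatin accessibility by DNase-seq in hippocampus of B6CASTF1/J male mice at an age of 2 months. These are first-generation hybrids, and both parental alleles were placed on the assembly mm10. It held 1 group of 2 samples, labelled biological replicates 1 and 2, with no treatment and no second tissue. The labels name a layer of the hippocampus without saying which, and give both biosamples the same donor entry. Nothing says that the replicates came from separate animals, so the spread between them may be technical. With 1 group no test over samples could be made, and no p-value is given, since regions are not replicates. Shares are given with 95% intervals (Wilson for members), which cover counting error only and treat neighbouring regions as independent. The longer peak lists held 132685 peaks in replicate 1 and 59880 in replicate 2, and the footprint lists 255536 and 111355. The sources used here do not give the sequencing depth. Shared peaks lay at the promoters of 6 of 6 neuronal markers and 5 of 6 excitatory-neuron markers, of 3 of 5 astrocyte and 3 of 5 oligodendrocyte markers, of 1 of 5 interneuron, 1 of 5 microglial and 1 of 5 vascular markers and of 0 of 3 liver and 0 of 3 muscle markers.

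In DNase-seq, nuclei are treated with the enzyme DNase I, which cuts DNA that is not wrapped in nucleosomes, and the cut ends are sequenced. Promoters and enhancers appear as peaks of cuts. A bound transcription factor can shield its binding site and leave a footprint within the peak. Factors that stay on DNA for long, such as the insulator protein CTCF, are known to leave deep footprints, while factors with a short residence time can leave little or none. DNase I also cuts some short sequences better than others.

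The members fell into 2 kinds. In 288 of them at least 1 footprint lay outside the overlap but within the joint span of the replicate peaks that formed the site. A footprint of 1 replicate could thus lie under the other replicate's peak alone. The other 81 had no footprint over the whole of the peaks of both replicates. The overlap was narrow in the first kind, with a median of 60 bp, or 33.3% of the narrower of the 2 peaks, and the nearest footprint was a median of 44 bp away in replicate 1 and 47 bp away in replicate 2. In the second kind the overlap had a median of 220 bp, or 100% of the narrower peak, and the nearest footprints were a median of 293 and 300 bp away. The split uses the same footprint calls that chose the members, so these distances are a description.

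The sequences below show 6 members of the first kind, each beside the comparison peak nearest to it in both heights, and then 3 of the second kind. Each is 150 bp centred on the shared peak, on the plus strand of GRCm38 (the assembly also called mm10), from RefSeq. Capitals mark bases under a footprint of either replicate. Windows with more than 30 bases of annotated untranslated region were passed over, which left out 6 higher members ahead of the third one shown. The first of the highest members shown lay 41 bp from the nearest start site of Odr4 and close to that of Tpr, a nuclear pore protein. Its heights were 6.66 and 4.86 (replicate 1, then replicate 2, here and below), against 6.63 and 4.82 in the comparison peak beside it at the start of Adam17, which encodes a membrane protease that sheds receptors and cytokines. The overlap in the Odr4 site was 60 bp wide (chr1:150393121-150393180), and the capitals all lie outside it.
Odr4 member, chr1:150393076-150393225: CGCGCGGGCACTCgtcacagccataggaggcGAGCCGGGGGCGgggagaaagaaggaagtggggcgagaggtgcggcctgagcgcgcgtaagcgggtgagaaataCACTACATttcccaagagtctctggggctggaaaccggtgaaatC
Adam17 comparison, chr12:21373606-21373755: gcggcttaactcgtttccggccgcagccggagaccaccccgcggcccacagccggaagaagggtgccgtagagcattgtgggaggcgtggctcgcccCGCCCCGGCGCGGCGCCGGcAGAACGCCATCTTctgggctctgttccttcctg
The next member lay in an exon of the noncoding gene Mtag2 and outside every protein-coding gene, with heights of 4.05 and 5.07, against 3.85 and 5 in the comparison peak at Nepro. Its 260 bp overlap covered the whole window, which therefore holds no capitals.
Mtag2 member, chr7:45367436-45367585: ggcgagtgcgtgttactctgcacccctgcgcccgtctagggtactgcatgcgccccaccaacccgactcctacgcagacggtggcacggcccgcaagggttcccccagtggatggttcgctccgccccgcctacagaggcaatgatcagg
Nepro comparison, chr16:44724446-44724595: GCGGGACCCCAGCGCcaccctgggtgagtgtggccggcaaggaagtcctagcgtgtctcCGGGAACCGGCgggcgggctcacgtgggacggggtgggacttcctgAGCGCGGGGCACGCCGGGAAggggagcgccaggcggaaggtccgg
The third was at Mrps14, a protein of the small subunit of the mitochondrial ribosome, with heights of 6.62 and 2.80, against 6.61 and 2.83 at Alg1, an early mannosyltransferase of N-glycan synthesis. Footprints stood on both sides of its 40 bp overlap (chr1:160195061-160195100).
Mrps14 member, chr1:160195006-160195155: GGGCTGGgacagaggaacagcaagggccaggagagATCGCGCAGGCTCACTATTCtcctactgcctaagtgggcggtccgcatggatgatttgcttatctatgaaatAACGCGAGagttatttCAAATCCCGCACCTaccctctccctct
Alg1 comparison, chr16:5233546-5233695: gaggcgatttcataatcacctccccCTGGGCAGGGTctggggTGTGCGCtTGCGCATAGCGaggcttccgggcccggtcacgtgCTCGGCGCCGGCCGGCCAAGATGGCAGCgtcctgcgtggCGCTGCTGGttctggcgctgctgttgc
The 3 highest distal members lay over 2500 bp from every protein-coding start site. The first, inside the noncoding gene 9330198N18Rik, had heights of 2.15 and 4.92, against 2.56 and 4.18 in the comparison peak in an intron near Peak1. Of the 150 bases of the window at Peak1, 100 lay under a footprint of either replicate, against 0 at 9330198N18Rik.
9330198N18Rik member, chr2:30658796-30658945: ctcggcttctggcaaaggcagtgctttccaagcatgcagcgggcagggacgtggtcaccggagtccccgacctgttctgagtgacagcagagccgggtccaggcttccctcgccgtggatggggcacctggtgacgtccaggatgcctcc
Peak1 comparison, chr9:56223526-56223675: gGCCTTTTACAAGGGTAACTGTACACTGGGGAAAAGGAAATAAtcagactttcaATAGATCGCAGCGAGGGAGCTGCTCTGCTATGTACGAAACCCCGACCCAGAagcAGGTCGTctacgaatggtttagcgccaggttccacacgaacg
The second, inside the noncoding gene Gm12446, had heights of 3.62 and 2.35, against 3.61 and 2.38 at Ccdc91. Its window was 79.3% G or C and held 25 CpG dinucleotides, against 63.3% and 16 at Ccdc91.
Gm12446 member, chr4:46304886-46305035: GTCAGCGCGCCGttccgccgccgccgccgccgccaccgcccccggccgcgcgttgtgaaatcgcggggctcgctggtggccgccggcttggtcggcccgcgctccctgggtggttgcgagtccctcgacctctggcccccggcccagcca
Ccdc91 comparison, chr6:147476236-147476385: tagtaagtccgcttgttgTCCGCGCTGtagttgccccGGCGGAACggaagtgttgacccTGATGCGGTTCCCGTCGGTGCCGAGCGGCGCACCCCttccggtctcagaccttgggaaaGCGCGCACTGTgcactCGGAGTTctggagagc
The third, in an intergenic stretch 24880 bp from the start of the olfactory receptor gene Olfr1423, had heights of 3.18 and 2.30, against 3.19 and 2.30 near P3h3. It was 20 bp wide, and footprints covered 54 bases of its window on either side, against 55 bases at P3h3.
Olfr1423 member, chr19:12011776-12011925: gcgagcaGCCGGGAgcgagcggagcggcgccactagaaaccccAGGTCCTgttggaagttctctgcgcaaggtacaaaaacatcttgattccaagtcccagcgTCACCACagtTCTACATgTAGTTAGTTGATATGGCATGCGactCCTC
P3h3 comparison, chr6:124857076-124857225: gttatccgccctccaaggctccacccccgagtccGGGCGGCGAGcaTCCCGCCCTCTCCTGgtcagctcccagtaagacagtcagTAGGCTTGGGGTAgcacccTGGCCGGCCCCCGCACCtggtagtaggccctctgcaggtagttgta
The last sequences are 3 of the members without a footprint over the whole of their peaks, the highest whose windows met the limit on untranslated bases (2 higher ones did not). This set was added after values were seen. They lay at Tpt1, which encodes an abundant translationally controlled protein, at Mepce, the capping enzyme of 7SK RNA, and at Dpysl2, which encodes a protein of axon growth. Their heights were 2.51 and 2.23 at Tpt1, 2.52 and 2.05 at Mepce, and 2.58 and 1.96 at Dpysl2. None of the 3 windows holds a capital.
Tpt1 member, chr14:75845626-75845775: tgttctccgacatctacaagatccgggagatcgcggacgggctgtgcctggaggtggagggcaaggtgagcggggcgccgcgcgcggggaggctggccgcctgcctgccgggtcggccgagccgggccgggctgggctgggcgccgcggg
Mepce member, chr5:137787236-137787385: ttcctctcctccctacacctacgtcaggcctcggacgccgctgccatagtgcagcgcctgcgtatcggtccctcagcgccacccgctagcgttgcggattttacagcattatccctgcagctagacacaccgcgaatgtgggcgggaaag
Dpysl2 member, chr14:66868976-66869125: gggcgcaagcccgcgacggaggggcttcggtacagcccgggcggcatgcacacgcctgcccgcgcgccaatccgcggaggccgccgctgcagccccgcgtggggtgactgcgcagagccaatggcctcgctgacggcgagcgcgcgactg

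Members were lower than the comparison peaks, within the range that the rule allowed. In replicate 1 their heights had a lowest value of 1.49, a median of 1.99 and a highest of 7.95, against 1.49, 3.72 and 37.0 in comparison peaks. In replicate 2 the lowest was 1.10, the median 1.62 and the highest 5.07, against 1.10, 2.13 and 40.5. The ranges overlapped over the whole range of the members. The 81 members without any footprint over their peaks kept to the low end, with at most 3.33 in replicate 1 and 2.61 in replicate 2, as the plot of heights shows. As a log2 ratio of replicate 2 to replicate 1, the median was -0.31 in members and -0.82 in comparison peaks. Across regions the heights of the replicates ranked alike less closely in members (Spearman's rho 0.430 over 369 regions) than in comparison peaks (0.768 over 18045 regions), over a narrower range of heights. Both are descriptions of the same 2 libraries.

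**Figure D1:**
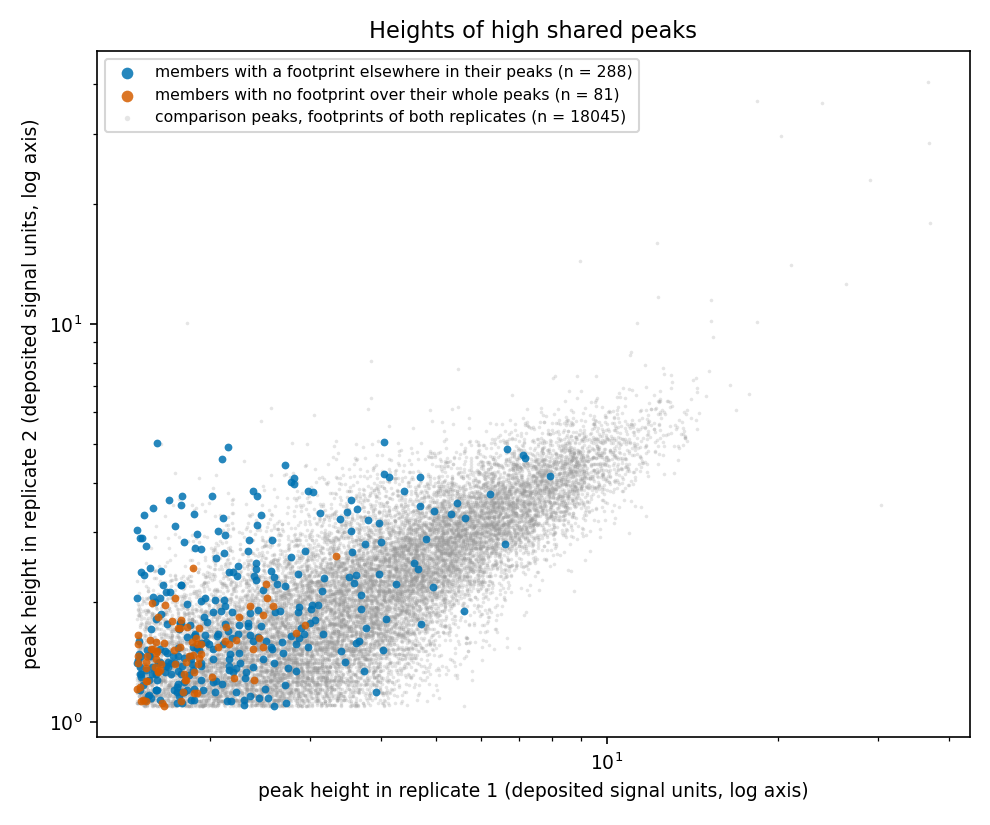
Each point is 1 high shared peak, with its height in replicate 1 on the x axis and in replicate 2 on the y axis, both in the authors' signal units on log axes. The 81 members without a footprint over their whole peaks (orange) reach 3.33 and 2.61, the other 288 members (blue) reach 7.95 and 5.07, and the 18045 comparison peaks (grey) extend to 37.0 and 40.5.

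The members just inside the height thresholds had heights of 1.49 and 2.05, 1.49 and 3.03, and 1.49 and 1.22. The footprint-free shared peaks just outside had 2.02 and 1.09, 1.48 and 2.03, and 2.12 and 1.09. Intervals with a deposited FDR covered every base of all 369 members in replicate 1 and of the median member in replicate 2, where the lowest member was covered over 29.0% of its bases. The median of the lowest FDR in a site was 3.48e-13 in replicate 1 and 1.28e-07 in replicate 2 for members, against 5.32e-29 and 6.14e-10 for comparison peaks. The shorter peak lists of both replicates held 82.9% of members, against 86.8% of height-weighted comparison peaks. Members occurred on all 19 autosomes, at 1.14% to 2.78% of the high sites of each.

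Because members were lower, shares and means of the comparison peaks from here on are weighted to the members' heights, while medians are unweighted. High sites were sorted into 25 strata (5 by 5 quantiles of the members' heights in both replicates), and comparison peaks were weighted to the members' share of each stratum. All members had comparison peaks in their stratum.

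Members were narrower than comparison peaks. The overlap of both replicates' peaks had a median of 60 bp in members and 200 bp in unweighted comparison peaks. The mean was 104 bp in members and 211 bp in height-weighted comparison peaks, a difference of -107 bp (SE 4.79 over regions). Of the high sites up to 40 bp wide, 42.2% were members (130 of 308). The share was 13.2% at 41 to 60 bp, 6.76% at 61 to 100 bp and 1.21% at 101 to 150 bp. It was lowest above 150 and up to 200 bp, 0.352% (35 of 9951), and then 0.825% at 201 to 250 bp, 1.34% at 251 to 300 bp and 1.01% above 300 bp. The 81 members without a footprint over their whole peaks were as wide as comparison peaks of their heights, with a mean of 209.6 bp against 209.5 bp. The shortest deposited footprint was 7 bp, and so was the narrowest member. The width difference was 0.895 bp among sites of at least 150 bp, but that rule cuts on width itself and drops the narrow members. It therefore cannot check the difference. With sites defined by replicate 1 alone the width difference turned to 37.3 bp. The part of width in the absence of a footprint was not tested.

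**Figure D2:**
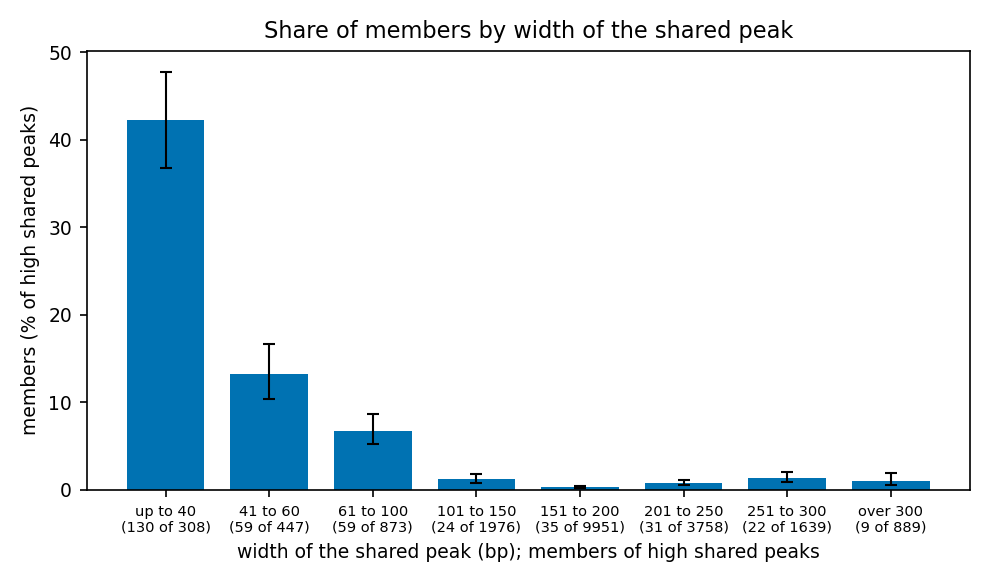
Bars give the members as a percentage of all high shared peaks in each class of width (bp), with 95% Wilson intervals, and the counts stand under each class. The share is 42.2% up to 40 bp, lowest at 0.352% above 150 and up to 200 bp, and about 1% in the wider classes.

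Start sites of protein-coding genes were near most members. Of 369 members, 240 (65.04%, interval 60.04 to 69.7) lay within 500 bp of a start site, against 46.2% (44.6 to 47.7) of height-weighted comparison peaks. Distal members, over 2500 bp from every start site, were 20.3% against 44.4%. By place, the members not near a start site, distal ones included, divided as follows, in percent of all members. Introns held 14.4% (comparison peaks 21.8%), exons 5.69% (6.28%), and 14.9% (25.7%) lay outside protein-coding genes, called intergenic here. Among the 81 without a footprint over their whole peaks, 60 (74.1%, 63.6 to 82.4) were near a start site, against 39.3% of comparison peaks of their heights, and 7 (8.64%) were distal, against 50.3%.

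Members near a start site were more often set off from it. Only starts of protein-coding transcripts were counted, so a noncoding start could be nearer. Over all 369 members, near a start site or not, one lay inside the shared peak in 13.3%, against 31.0% of all height-weighted comparison peaks. Members were narrower (mean 104 bp against 211 bp), and the part of width in these shares was not tested. Among start-site peaks, the centre lay within 50 bp of the start in 20.8% of members and 44.8% of comparison peaks, and over 150 bp downstream, inside the gene, in 28.3% and 14.3%. It was 51 to 150 bp downstream in 18.3% of members and 8.29% of comparison peaks, and over 150 bp upstream in 17.9% and 12.8%. Of the 60 start-site members without a footprint over their whole peaks, 46.7% (34.6 to 59.1) were centred over 150 bp downstream, against 14.3% of comparison peaks of their heights, and 12 of the 60 lay within 50 bp, against 44.8%. In the other classes the intervals overlapped, as at 51 to 150 bp downstream (3 of 60, against 7.96%) and over 150 bp upstream (11.7% against 12.5%). The share of start-site peaks centred over 150 bp from the start in either direction differed by 19.2 points (SE 3.38) over all members, but by 1.93 (SE 5.67) with the shorter peak lists and 5.20 (SE 6.89) in the upper quartile of height. The median centre was 37 bp downstream of the start in members and 107.5 bp downstream in those 60, against 29 bp upstream in unweighted comparison peaks.

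**Figure D3:**
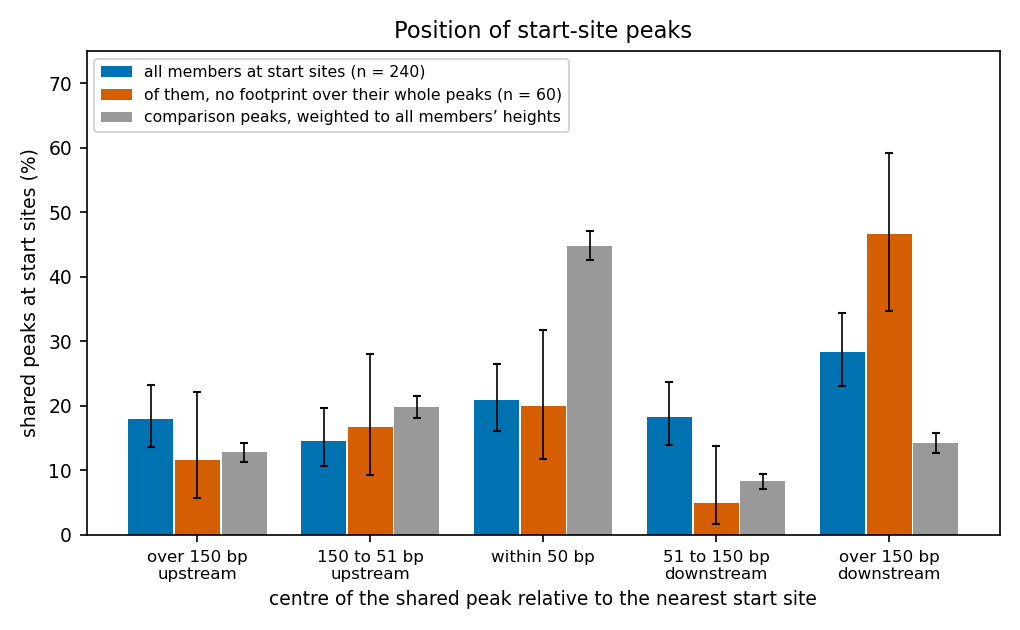
Bars give the percentage of start-site peaks whose centre falls in each class of position relative to the nearest start site, with 95% intervals, for all 240 start-site members (blue), the 60 of them without a footprint over their whole peaks (orange) and comparison peaks weighted to all members' heights (grey). Comparison peaks are most often within 50 bp of the start (44.8%), and the 60 members most often over 150 bp downstream (46.7%).

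Members stood beside other open sites. Another shared peak lay within 500 bp of 66.7% of members, against 35.3% of height-weighted comparison peaks. Height and footprints of a neighbour were read from the nearest shared peak only. It lay within 500 bp and was higher in both replicates for 23.6% of members and 3.11% of comparison peaks. For 48.2% and 18.8% it lay within 500 bp and had footprints of both replicates. The contrast was larger for the 81 without a footprint over their whole peaks. Another shared peak lay within 500 bp of 81.5% of them, against 33.6% of comparison peaks of their heights. The nearest one was that close and higher in both replicates for 64.2%, against 3.25%. The nearest one was that close and had footprints of both replicates, whether or not it was higher, for 63.0% of the 81, against 15.5%. A replicate peak that ran across into another shared peak was part of 37.4% of members, against 18.2% of comparison peaks, but of 12.3% of the 81, against 15.8%.

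**Figure D4:**
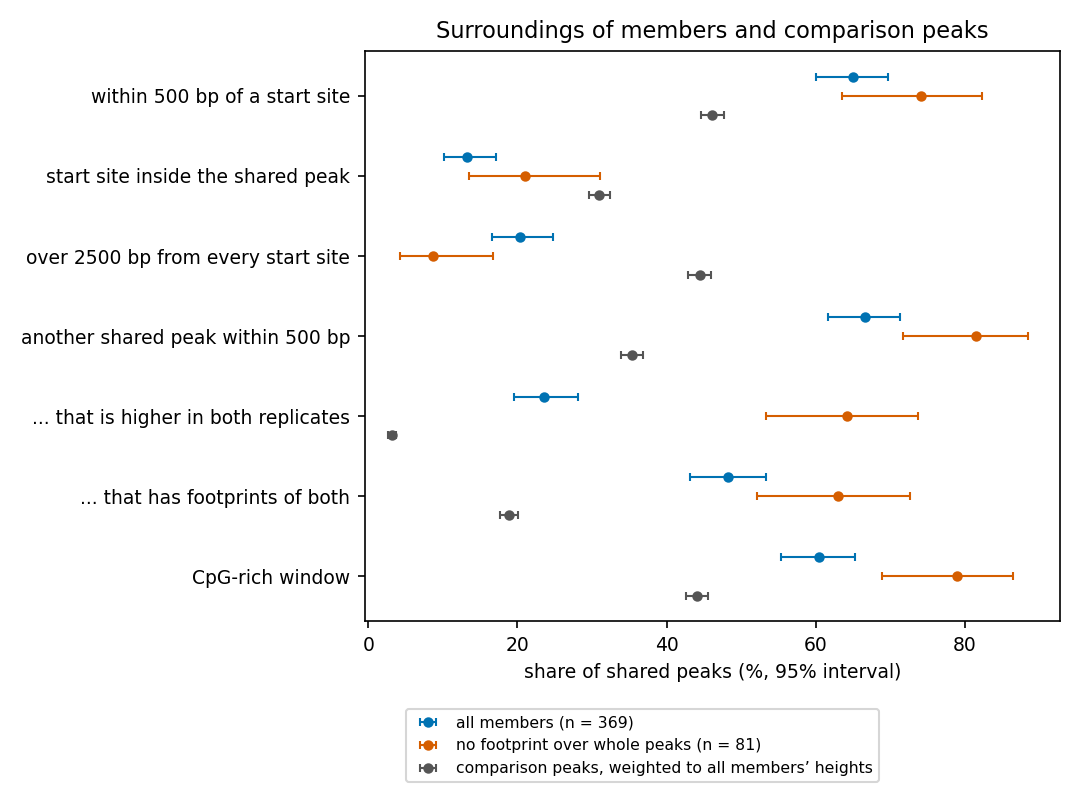
Points give the percentage of shared peaks with each property, with 95% intervals, for all 369 members (blue), the 81 without a footprint over their whole peaks (orange) and comparison peaks weighted to all members' heights (grey). Height and footprints of a neighbour are those of the nearest shared peak only. It was within 500 bp and higher in both replicates for 23.6% of members and 64.2% of the 81, against 3.11% of comparison peaks.

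Of the 10 widest members 8 lay at start sites. The widest, 460 bp at Mdm2, which encodes the ubiquitin ligase that targets p53, was centred 527 bp downstream of the start (chr10:117710001-117710460) with heights of 1.73 and 1.52, and the next shared peak was 180 bp away. At Bhlhe40, a circadian repressor, the member was 420 bp wide and centred 658 bp upstream, with heights of 2.35 and 1.96. Fubp1, a regulator of Myc transcription, had one of 420 bp centred 510 bp downstream (1.49 and 1.66). The member at Uchl1, a ubiquitin hydrolase abundant in neurons, was 380 bp wide and centred 640 bp downstream (1.86 and 1.59). Its nearer edge was 450 bp from the Uchl1 start, while a start of the noncoding gene Uchl1os lay 43 bp from the site. The member at Zbtb7a, a zinc-finger repressor, was 320 bp wide and centred 443 bp downstream (1.87 and 2.44). None of these 5 held a footprint over the whole of its peaks, and each had another shared peak within 300 bp. Cbx3, which encodes a heterochromatin protein, had a member of 420 bp (1.60 and 2.00), from peaks of 440 bp in replicate 1 and 720 bp in replicate 2. Over the joint span of these peaks lay 3 footprints of replicate 1, the nearest 100 bp from the overlap and so outside the replicate 1 peak. Also among the 10 widest, the members at Eef1a1, the translation elongation factor, and at Cebpg, a bZIP factor, were at start sites, while the one near Shf was intergenic, and none of these 3 held a footprint over its peaks.

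The highest members were mostly of the narrow kind. The highest of all by geometric mean lay at Ppp2r1a, the scaffold subunit of protein phosphatase 2A (chr17:20945461-20945500), with heights of 7.11 and 4.69. Its overlap was 40 bp wide, while the replicate peaks that gave these heights spanned 260 and 300 bp. Over the joint span of these peaks lay 9 footprints of replicate 1 and 8 of replicate 2, all outside the overlap. The site shared by the starts of Mrpl47, a mitochondrial ribosomal protein, and Ndufb5, a subunit of respiratory complex I, had 7.18 and 4.60, with an overlap of 60 bp. Serf2 had 7.95, the highest value of a member in replicate 1, and 4.14, with an overlap of 20 bp. Thap7 (6.22 and 3.73), Btbd3 (5.44 and 3.55), Scamp2 (4.68 and 4.12), Stim1, the calcium sensor of the endoplasmic reticulum (5.62 and 3.26), and the RNA-binding protein gene Raly (5.31 and 3.33) were also among the 10 highest start-site members, with Odr4 and Mrps14 above. All of these sites had a footprint elsewhere in their replicate peaks.

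Without any footprint over the peaks, the highest was at Arl4a, which encodes a small GTPase-like protein (chr12:40037941-40038180), with heights of 3.33 and 2.61. Its overlap of 240 bp was centred 36 bp upstream of the start. Beside those at Tpt1, Mepce and Dpysl2, the 10 highest included Acin1, a nuclear protein of the splicing machinery, with 2.94 and 1.75, and Ankrd16 with 2.83 and 1.68. The repressor gene Cic had 2.48 and 1.86, and Nsd3, a histone methyltransferase, had 2.25 and 1.84. The member at Acin1 was centred on the start, and its nearest shared peak was 11680 bp away, so a close neighbour was not present at every such site. The 7 distal ones had heights from 1.60 to 1.88 in replicate 1 and from 1.12 to 1.80 in replicate 2. Shf, Sox4, Myl3 and Wee1 were the nearest protein-coding genes of 4 of them, and the other 3 lay inside A330023F24Rik, in an exon of Celf1 and in an intron of Fto.

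Distal members after the 3 shown above were an intergenic site near Sertad1 (2.34 and 2.69, 220 bp wide), sites in introns of Foxp4 (4.03 and 1.52), Ldlrad3 (3.62 and 1.58) and Zfp516 (2.05 and 2.58), sites inside the noncoding genes Gm15396 (3.17 and 1.67) and Gm42743 (1.80 and 2.84), and a site of 7 bp in an exon of Cbx6 (3.41 and 1.51). Each of these 7 had a footprint elsewhere in its replicate peaks. By raw value replicate 1 was the higher at 4 of the 7 and replicate 2 at the other 3. The median heights of shared peaks differed between replicates (1.48 and 1.09), so raw values do not show in which replicate a site was more open.

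Few genes of the cell types of the tissue had a member at a start site. Of 20780 autosomal protein-coding genes, 267 (1.28%) had one within 500 bp, and 184 of these (68.9%) also had a high footprinted peak there. The share of all genes with such a peak was not computed, so the 68.9% cannot be read as a trait of genes with a member. Of 13 pan-neuronal genes 1 had a member, Uchl1, and of 17 immediate-early genes 1, Homer1, a postsynaptic scaffold gene (1.62 and 1.51, 300 bp wide, centred 64 bp upstream). Of 22 genes of cytosolic ribosomal proteins 1 had a member, Rps27a, at a start shared with Clhc1 (1.83 and 1.46, 280 bp wide). These 3 had no footprint over their whole peaks. No member lay at a start of the genes of the other 9 lists, which were housekeeping (13 genes), excitatory neuron (15), interneuron (15), astrocyte (15), oligodendrocyte (14), microglia (15), vascular (15), liver (10) and muscle (10). With lists of this size, a count of 0 or 1 is too small to set against the 1.28% of all genes.

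Base composition differed by the kind of member. The 150 bp window was wider than the overlap of most members (median 60 bp), so it took in flanking sequence that can hold footprints. The median overlap was 220 bp in the 81 without a footprint over their whole peaks and 200 bp in unweighted comparison peaks. Over the window, G and C made up a mean of 63.4% in members and 62.1% in height-weighted comparison peaks, a difference of 1.31 points (SE 0.489 over regions). The direction depended on the place: among start-site peaks members were lower by 1.87 points, and among other peaks higher by 1.86 points, and with heights weighted within those places the difference was -0.56 (SE 0.490). The 81 without a footprint over their whole peaks had a mean of 67.6% against 61.6%, a difference of 6.01 (SE 0.945), which was 1.62 (SE 1.07) among start-site peaks and 5.54 (SE 1.68) among the other 21. A CpG-rich window, with at least 55% G or C and an observed over expected CpG ratio of at least 0.65, was found for 60.4% of members and 44.1% of comparison peaks, and for 79.0% of the 81 against 38.7%. Among start-site peaks alone the shares were 75.4% and 73.0% for members, and 85.0% and 70.5% for the 81. Masked repeats covered 50% or more of the window in 1 of 369 members (0.271%) and in 0.760% of comparison peaks.

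Consensus motifs were searched in the same windows as exact matches on both strands. In most members a match could therefore lie outside the overlap. The consensus of CTCF was found in 0 of 369 members, a count that allows a share of up to 0.813% taken as 3 counts of the total (the Wilson upper bound is 1.03%), against 6.07% (5.33 to 6.81) of height-weighted comparison peaks and 6.46% of all 49472 autosomal shared peaks. Outside start sites it was found in 0 of 129 members, which allows up to 2.33%, against 9.67%. At start sites, 0 of 240 allows up to 1.25%, against 0.963%, so a difference there was not detectable. The E-box CAGATGG, of the kind bound by Neurod factors of excitatory neurons, was found in 3.25% (1.87 to 5.60) of members, against 9.97% (9.04 to 10.9) of comparison peaks and 9.29% of all shared peaks. Outside start sites the shares were 4.65% and 16.6%, and at start sites 2.50% and 2.30%.

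Other motifs differed less or with the place. CCAAT, the box of NFY, was found in 13.0% of members (9.95 to 16.8), against 18.2% of comparison peaks (17.0 to 19.4) and 19.3% of all shared peaks. The NFI motif TTGGCA was found in 7.05% of members, against 11.3% of comparison peaks and 11.9% of all, but within each place the intervals overlapped (4.58% against 4.997% at start sites, and 11.6% against 16.5% elsewhere). For CCAAT they did not overlap at start sites (13.3% against 20.01%) and did elsewhere (12.4% against 15.8%). The E-box CAGCTG was found in 10.03% of members, against 14.5% and 13.8%, with intervals that just touched. CCGGAAG, the site of ETS factors, was more frequent in members, at 9.21% (6.67 to 12.6) against 5.38% (4.68 to 6.07) and 4.57% of all. At start sites alone its shares were 12.5% (8.90 to 17.3) and 9.81% (8.50 to 11.1), with overlapping intervals. The GC box GGGCGG, bound by Sp and Klf factors, had nearly the same share in members (36.3%) and comparison peaks (34.7%), against 23.8% of all shared peaks. It was lower in members at start sites, 42.1% against 54.2%, and higher elsewhere, 25.6% against 16.6%.

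The other 19 motifs had intervals in members that overlapped those of comparison peaks. The AP-1 motif TGANTCA was found in 2.17% of members, against 3.44% of height-weighted comparison peaks and 4.36% of all shared peaks, the cAMP response element TGACGTCA in 0.813%, against 1.29% and 1.11%, and the NRF1 motif GCATGCGC in 0.813%, against 2.29% and 1.89%. The E-box CACGTG was found in 5.96% of members, against 5.06% and 4.33%, the TEAD motif GGAATG in 4.88%, against 6.31% and 7.28%, and the homeodomain core TAATTA in 1.90%, against 0.984% and 1.52%. A run of G, GGGGGGGG, stood in 2.17% of members, against 0.986% and 0.544%, and a run of A, AAAAAAAA, in 1.36%, against 0.81% and 1.13%. The repeats CACACACA and GAGAGAGA stood in 1.36% and 0.813% of members, against 2.42% and 1.32% of comparison peaks and 2.27% and 1.48% of all. The octamer ATGCAAAT was found in 0.813% of members, against 0.635% and 0.740%. Motifs found in 0 to 2 members were those of EGR (GCGTGGGCG), YY1 (AAGATGGCG), ZNF143 (ACTACAATT), MEF2, RFX and SRF, the palindrome CTCGCGAG and the telomere repeat TTAGGGTTA, each in under 1% of comparison peaks and of all shared peaks. CAGATGG and the YY1 motif share the letters AGATGG but differ in the base before them, so the same letters cannot match both.

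In the 81 without a footprint over their whole peaks, the GC box was found in 50.6% (39.95 to 61.2), against 31.9% of comparison peaks of their heights, and CCGGAAG in 12.3% (6.85 to 21.3) against 3.99%. CAGATGG was found in 1.23% against 11.9%, and CAGCTG in 6.17% against 15.9%. CTCF was found in 0 of 81 (Wilson upper bound 4.53%, limit from 3 counts 3.70%), against 5.34% (4.44 to 6.24), and the Wilson interval overlapped that of the comparison peaks. The octamer ATGCAAAT stood in 3 of the 81 (3.70%, 1.27 to 10.3), against 0.758%. The 81 were more often at start sites than these comparison peaks (74.1% against 39.3%), and their motifs were not split by place. In comparison peaks weighted to all members' heights within place, shares at start sites and elsewhere were 54.2% and 16.6% for the GC box and 9.81% and 1.88% for CCGGAAG. They were 2.30% and 16.6% for CAGATGG, 10.9% and 17.6% for CAGCTG and 0.503% and 0.909% for ATGCAAAT. The part of place was not tested. A match is a run of letters, and nothing here shows whether a factor was bound. Of the 26 motifs searched, 5 in all members and 5 in the 81 had intervals that did not overlap those of the comparison peaks.

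**Figure D5:**
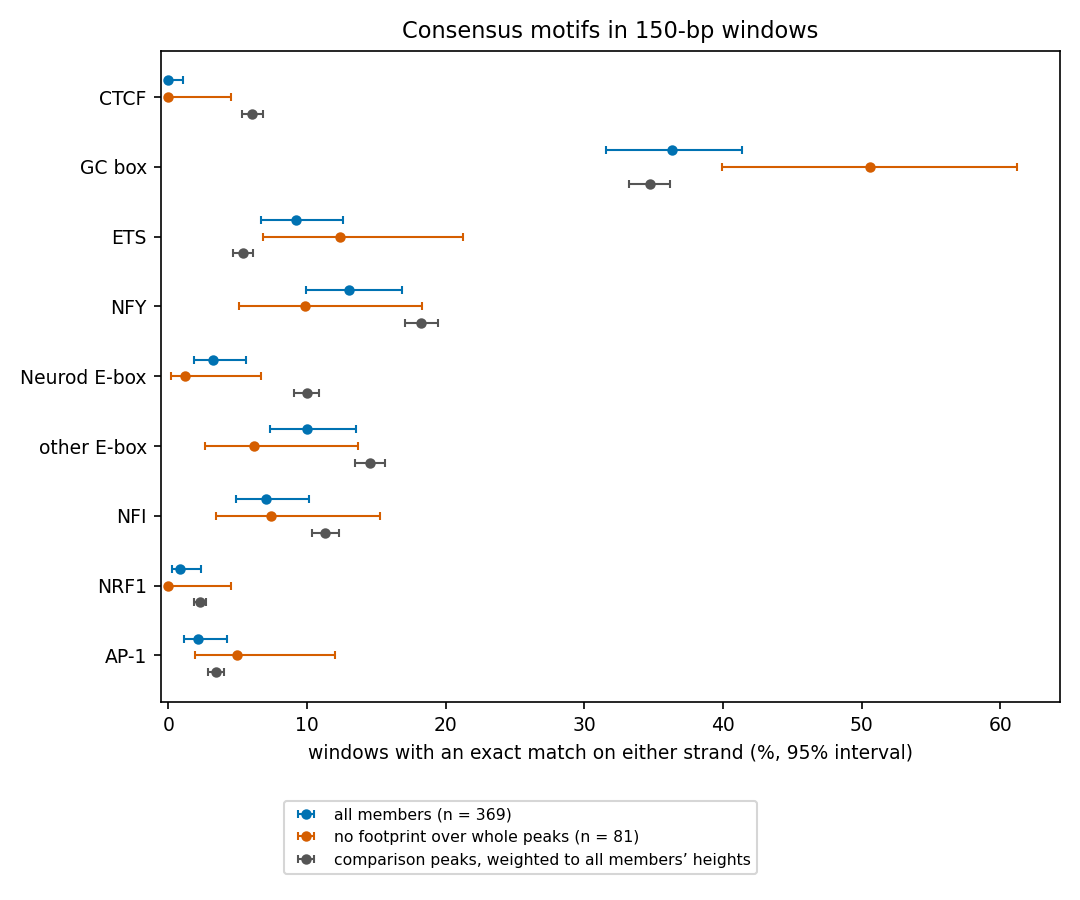
Points give the percentage of 150-bp windows with an exact consensus match on either strand, with 95% intervals, for all 369 members (blue), the 81 without a footprint over their whole peaks (orange) and comparison peaks weighted to all members' heights (grey). The Neurod E-box stands at 3.25% in members and 9.97% in comparison peaks, and CTCF at 0 and 6.07%. The other E-box is CAGCTG.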

How the data were processed

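DNase-seq was run on 2 samples of hippocampus, 1 group. Per the labels, the deposited files are on the assembly mm10; the sources used here do not name the aligner or the tools that called peaks and footprints. The authors deposited, per sample and without pooling, peak lists with a height per peak (a signal), footprints used by position only (a constant 0.01 stands in their p-value column) and intervals with a false discovery rate (a q-value). Heights were whole multiples of 0.00535 in replicate 1 and 0.0108 in replicate 2, so precision rests on an unknown depth.

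The longer peak lists were intersected (at least 1 bp) and merged, and each site took the highest overlapping peak of each replicate. Start sites were those of protein-coding transcripts in GENCODE M21; sequence was GRCm38 from RefSeq, in which the last peak of each of the 19 autosomes fell within the chromosome. CpG, repeats and motifs were read in 150 bp. Weighting used numpy 2.4.6, pandas 2.3.3 and scipy 1.17.1, and was tested on simulated data, where it removed most but not all of an effect of height. Named sites were the 10 highest, widest, highest start-site and highest distal members, members at listed genes, and sites at the thresholds; 1 site that this rule took is not reported here. The highest and the distal sites without a footprint over their whole peaks were named after values were seen, and positions around start sites, neighbours and motif shares by place were also added then. Members and lists were chosen with earlier results of these data known. Alternatives were the shorter lists, other overlap, height, width and footprint rules, other strata and each replicate alone. Members on chromosome 18 are shown without sequence.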

Additional observations from a re-analysis of the deposited data

How the results depend on the processing

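The number of members moved by over 1.5 times under each setting that redefined the sites, and differences are members minus height-weighted comparison peaks. The start-site, CTCF and neighbour differences kept their direction under all settings, while those in width and G and C content did not. Besides the count and its percentage of high sites, the values that moved beyond the interval of the reported one were these. The shorter peak lists gave 73 members (0.644%), 10.3 points for start sites, -134 bp for width, -1.04 for G and C, 1.93 points for peaks centred over 150 bp from the start and 17.8 points for a neighbour within 500 bp. A reciprocal overlap of 50% gave 27 (0.208%), 28.8, -3.59 bp, 5.78, 40.5 and 40.3, with -7.56 points for CTCF. The upper quartile of height gave 46 (0.467%), 10.3, -141 bp, -3.29, 5.20 and 17.4, with -4.91 for CTCF. No height threshold gave 6310 (12.8%), 10.6 points for start sites, -82.2 bp, -2.60 for CTCF and 24.4 for a neighbour. No footprint within 50 bp gave 158 (0.796%), 24.4, -47.6 bp, 2.85 for G and C, 30.2 for position and 44.5 for a neighbour, with -4.96 for CTCF. No footprint over the union of the peaks gave 81 (0.408%), 33.8, 12.7 bp, 6.07, 29.8 and 45.4, with -5.00 for CTCF. Sites of at least 150 bp gave 97 (0.597%), 29.8, 0.895 bp, 3.37, 31.4 and 44.5, with -4.47 for CTCF. Weighting by width as well, like 10 by 10 strata, left out members whose stratum held no comparison peak. Of the members kept with width, 67.5% were at start sites, against 65.04% of all. Weighting by width gave -2.61 for CTCF, and weighting within start-site and other peaks gave -0.56 for G and C, -4.01 for CTCF and 25.8 for a neighbour. The last, 10 by 10 strata and the position and neighbour results were added after seeing the data. The causes of these moves were not tested.

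Leaving out 1 replicate, so that the other's peaks and footprints alone defined the sites, gave 3142 members (10.7%) in replicate 2 alone and 4509 (6.93%) in replicate 1 alone. The lowest and highest values were 22.4 and 34.5 points for start sites, -29.1 and 37.3 bp for width, 4.06 and 7.03 for G and C, -1.60 and -0.440 points for repeats, -7.87 and -5.22 for CTCF, 21.8 and 27.2 for position, and 31.4 and 45.3 for a neighbour. Width was narrower in members with replicate 2 alone and wider with replicate 1 alone. No paired analysis was possible because there was 1 group. Footprint calls depend on depth, which no source used here gives, and footprints missed at a given depth cannot be told apart from absent ones.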

Other observations

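On the X chromosome, which the definition left out, 4 of 300 high shared peaks had no footprint of either replicate, and on the Y chromosome 0 of 2 did.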
